A study of Mus musculus with 12 samples.

Results

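The comparison set 3 arrays of Eng-Flk1+ cells against 3 arrays of Eng+Flk1- cells, 6 of the 12 arrays of the series. The members were taken by the title of each array. Both groups came from CD-1 mouse embryos at embryonic day 7.5, dissected from about 300 embryos of 25 litters and pooled, and each sample held 3000 sorted cells. Eng-Flk1+ cells carried Flk1, the VEGF receptor encoded by Kdr, on their surface and no Endoglin. Eng+Flk1- cells carried Endoglin, a co-receptor for TGF-beta and BMP ligands encoded by Eng, and no Flk1. The other fractions, which carried both proteins (Eng+Flk1+) or neither (Eng-Flk1-), had 3 arrays each. The labels give no genotype, transgene or treatment that separates the groups beyond the sort, and both groups shared the strain, the stage, the pool, the global PCR amplification of cDNA (SuperAmp) and the Cy3 label. The 3 samples of a group were sorted from 1 pool of embryos, so the spread between them may be technical, and the p-values measure only that spread.

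At this stage Flk1 marks mesoderm that gives rise to endothelium and to blood, and in the mouse the transcription factor ETV2 acts near the top of that program. Endoglin is best known from endothelium and early blood cells. The extraembryonic ectoderm, an epithelium next to the embryo proper, is the source of the trophoblast stem cells of the placenta, in which ELF5, EOMES and CDX2 act together. Primitive red cells, which carry embryonic globins such as that encoded by Hbb-bh1, form in the yolk sac from Flk1-positive precursors.

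Levels are log2 processed signal minus the array's own 75th percentile, so 0 is the level that 75 percent of its spots do not exceed. A log2 fold is the mean level in Eng-Flk1+ minus that in Eng+Flk1-. A spot counted as well above background by the scanner software's own flag. This held for 83.3%, 81.9% and 82.7% of spots on the Eng-Flk1+ arrays, against 80.9%, 80.2% and 83.0% on the Eng+Flk1- arrays. No spot was saturated. The median SD of a gene between replicates was 0.568 for Eng-Flk1+, against 0.558 for Eng+Flk1-. The number of arrays limits the precision.

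Of 22269 genes tested, 50 (0.225%) changed at an adjusted p under 0.05 by limma, 31 (0.139%) of them higher and 19 (0.0853%) lower in Eng-Flk1+. At an unadjusted p under 0.05 there were 2203 genes (9.89%). The 50 genes all had arrays that did not overlap between the groups. Of the 50, 24 stood well above background on all 6 arrays. The rest passed the filter only through the group in which they were higher, so their p-values must be read with that choice. With only genes well above background on all 6 arrays 1 gene changed, and with no filter 0 did. Over all genes tested, 1613 (7.24%) had every Eng-Flk1+ array above every Eng+Flk1- array and 1940 (8.71%) had every one below. The median fold of all genes was -0.089. The calls rest on all 6 arrays: with any 1 array left out, no gene passed, and between 1721 and 2504 genes had an unadjusted p under 0.05.

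**Figure D1:**
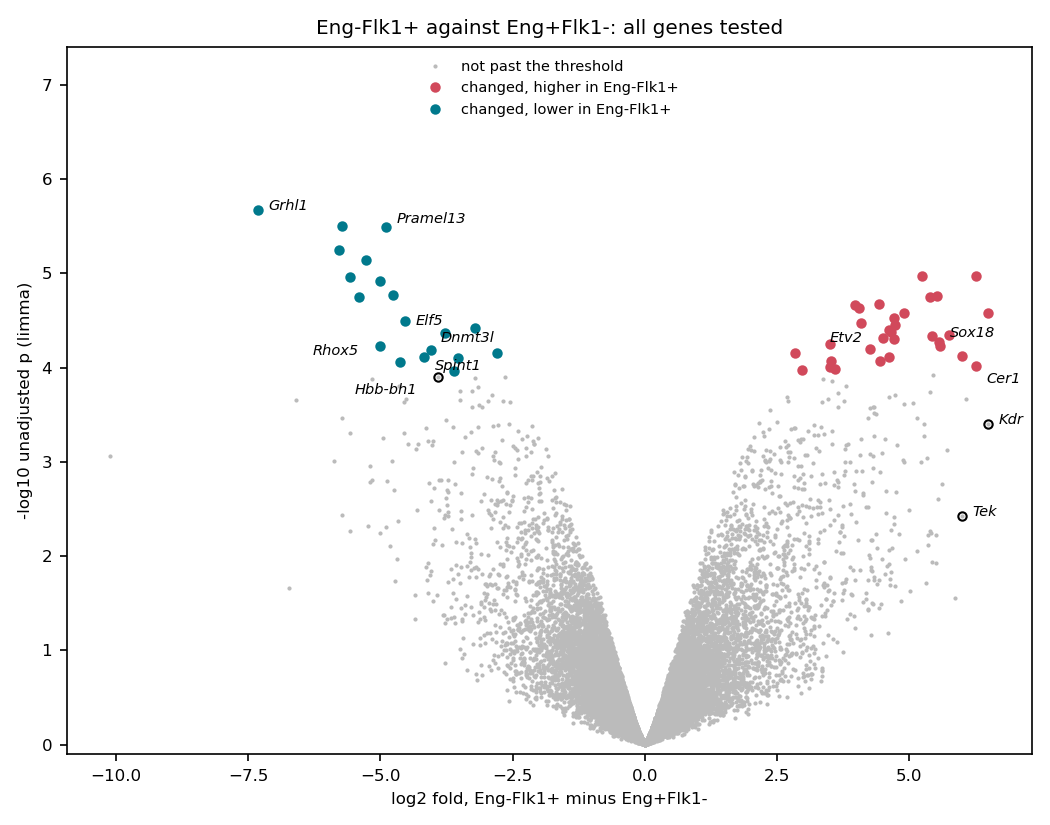
Each point is 1 of the 22269 genes tested, placed by its log2 fold (Eng-Flk1+ minus Eng+Flk1-, x axis) and the -log10 of its unadjusted p by limma (y axis). Red points are the 31 genes that rose and blue points the 19 that fell; open black circles mark Kdr, Tek and Hbb-bh1, which did not pass the threshold with folds of 6.49, 6.0 and -3.92.

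The slide on which an array lay must be read with these values. The 3 Eng+Flk1- arrays lay on slide 3, while Eng-Flk1+ replicate 1 lay on slide 1 and replicates 2 and 3 on slide 2. Slide and group cannot be told apart within the pair. Slide 3 also held Eng+Flk1+ replicate 3, so levels on that array can be set directly beside the Eng+Flk1- arrays of the same slide, and this is done below for the main gene groups. In a limma fit of all 12 arrays with slide as a fixed block, no gene passed and 896 had an unadjusted p under 0.05. Of the 113 genes chosen for description, 108 kept the sign of their fold. Most were chosen by their values on these same arrays, so that count is a description only. In this fit slide 3 is tied to the other slides only through Eng+Flk1+ replicate 3.

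Of the sorted proteins' own transcripts, Kdr separated the fractions and Eng did not. Kdr had levels of 0.90, 0.47 and 1.96 in Eng-Flk1+, against -3.27, -6.80 and -6.07 in Eng+Flk1-. The groups did not overlap, and Kdr was well above background on 3 and 2 arrays. Its fold was 6.49 ± 0.96 (SE), with an adjusted p of 0.0881 in limma, beside a wide spread among the Eng+Flk1- arrays. Eng had levels of 0.21, -0.36 and 1.62 in Eng-Flk1+, against 0.75, 0.84 and -0.16 in Eng+Flk1-. These overlapped, with a fold of 0.011 ± 0.60 and an adjusted p of 0.999. The transcript of the protein that defined the Eng+Flk1- gate was measured in both groups, and the error of its fold leaves room for a difference of either sign. In a bulk sample, fewer cells with a transcript and less transcript per cell cannot be told apart.

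Etv2, which encodes the Ets-family factor named above, rose in Eng-Flk1+. Its levels were 3.73, 2.69 and 4.0 there, against -1.49, -0.95 and -0.67 in Eng+Flk1-. The fold was 4.51 ± 0.47 (adjusted p = 0.037, limma). On slide 3, Eng+Flk1+ replicate 3 had an Etv2 level of 1.95, also above the 3 Eng+Flk1- arrays beside it. With slide as a fixed block the fold was 4.43 ± 1.06 with an adjusted p of 0.651.

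Elf5, an Ets-family factor of trophoblast stem cells, fell. Its levels were -3.51, -3.95 and -3.37 in Eng-Flk1+, against 0.34, 0.81 and 1.64 in Eng+Flk1-, and the fold was -4.54 ± 0.44 (adjusted p = 0.0353, limma). The level on Eng+Flk1+ replicate 3, which shared slide 3 with the Eng+Flk1- arrays, was -3.61. With slide as a fixed block the fold was -5.17 ± 0.96 with an adjusted p of 0.387. Hbb-bh1, the embryonic beta-like globin, had levels of -0.44, -1.44 and -1.89 in Eng-Flk1+, against 2.57, 3.07 and 2.33 in Eng+Flk1-. These did not overlap, but the fold of -3.92 ± 0.48 narrowly missed the threshold (adjusted p = 0.0525, limma).

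**Figure D2:**
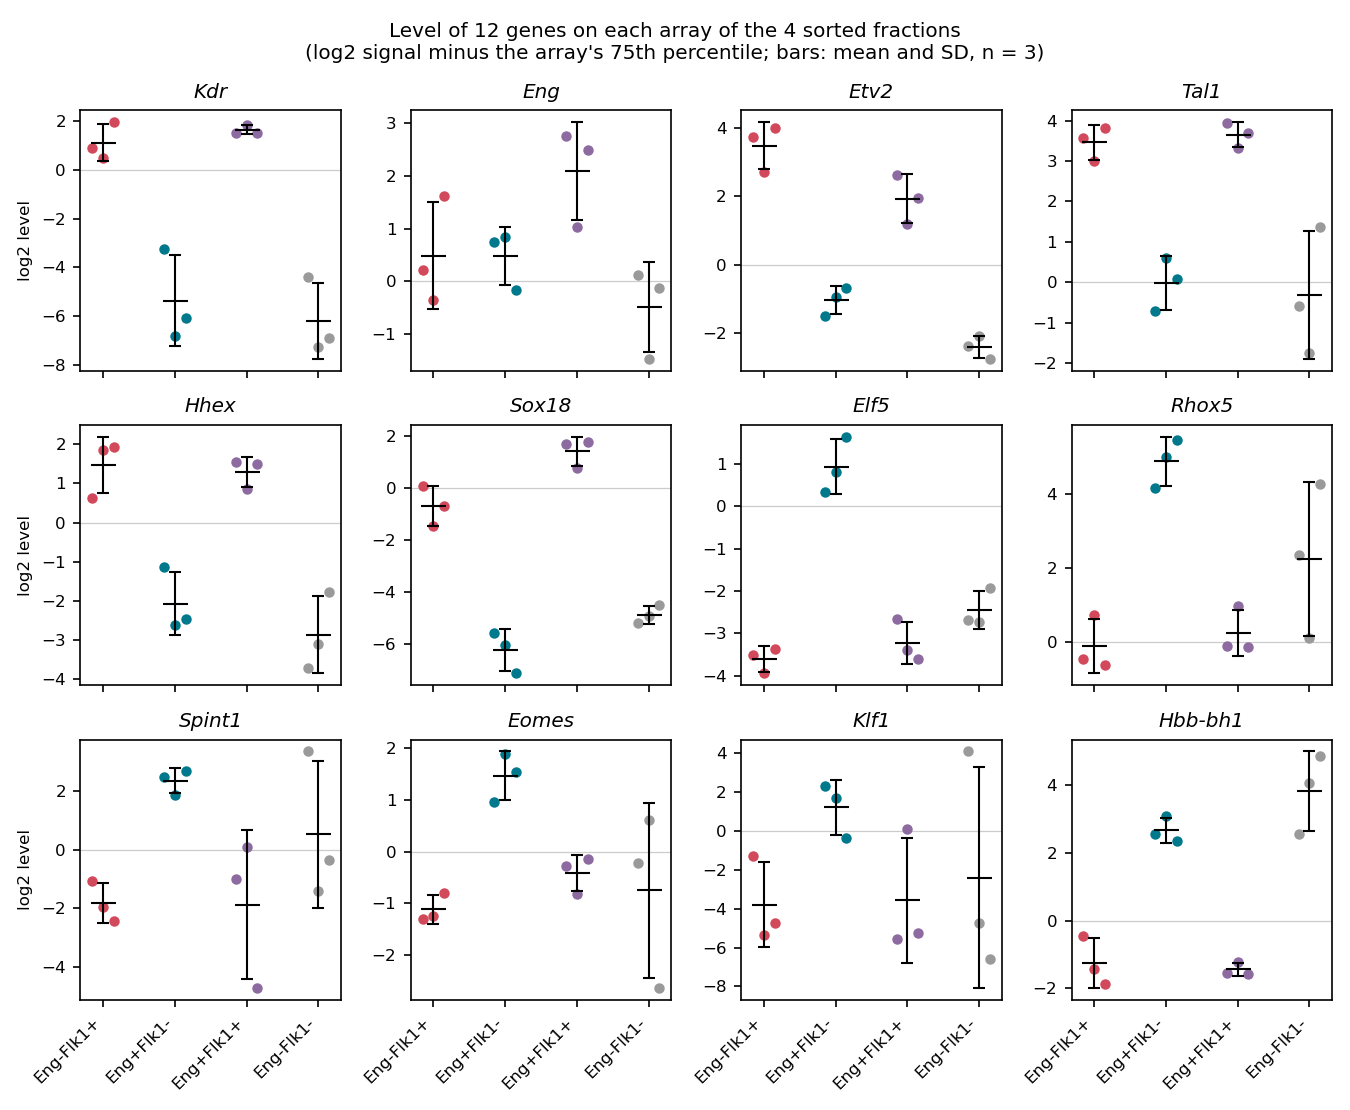
Levels (log2 signal minus the array's 75th percentile, y axis) of 12 genes on the 12 arrays, grouped by fraction on the x axis; points are arrays, and black bars are means with their SD (n = 3). Etv2, Tal1 and Sox18 are higher on Flk1-positive than on Flk1-negative arrays, Elf5 is highest on the Eng+Flk1- arrays (0.34 to 1.64, against at most -1.93 elsewhere), and Hbb-bh1 is higher in both fractions without Flk1.

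The promoters of 4 of these genes are shown because ETV2 and ELF5 are Ets-family factors, which bind a GGAA core, and because Etv2 and Kdr were high in one fraction while Elf5 and Rhox5 were high in the other. Each window holds the 250 bases before the start of the gene in RefSeq, build GRCm38.p6, read 5′ to 3′ on the strand of the gene. For Elf5 the upstream one of 2 starts in the table is given; the window of the other, at chr2:103423818-103424067, holds 0 matches. Capitals mark matches to the letters GGAAG on either strand (CTTCC is the same match read on the other strand).

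Etv2, chr7:30635853-30636102, minus strand: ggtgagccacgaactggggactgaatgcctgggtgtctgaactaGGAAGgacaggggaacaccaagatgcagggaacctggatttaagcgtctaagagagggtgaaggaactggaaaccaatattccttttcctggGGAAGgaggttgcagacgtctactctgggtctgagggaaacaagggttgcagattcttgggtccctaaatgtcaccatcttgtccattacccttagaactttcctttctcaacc
Kdr, chr5:75978456-75978705, minus strand: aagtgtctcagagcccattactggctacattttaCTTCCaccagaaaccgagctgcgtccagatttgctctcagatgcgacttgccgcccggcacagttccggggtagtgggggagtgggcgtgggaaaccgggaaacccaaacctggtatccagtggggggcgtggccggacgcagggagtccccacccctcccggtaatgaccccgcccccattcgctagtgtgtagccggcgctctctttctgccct
Elf5, chr2:103411848-103412097, plus strand: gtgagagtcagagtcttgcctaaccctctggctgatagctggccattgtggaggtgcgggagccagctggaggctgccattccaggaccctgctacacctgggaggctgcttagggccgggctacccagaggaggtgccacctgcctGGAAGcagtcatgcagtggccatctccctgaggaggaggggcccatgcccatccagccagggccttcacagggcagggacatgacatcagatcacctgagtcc
Rhox5, chrX:37754358-37754607, plus strand: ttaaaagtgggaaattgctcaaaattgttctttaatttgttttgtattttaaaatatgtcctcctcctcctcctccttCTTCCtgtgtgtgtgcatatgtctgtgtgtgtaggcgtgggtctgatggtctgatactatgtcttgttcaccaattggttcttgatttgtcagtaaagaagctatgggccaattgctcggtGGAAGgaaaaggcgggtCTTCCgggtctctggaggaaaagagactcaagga

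The Etv2 window holds 2 matches, the Kdr window 1, the Elf5 window 1 and the Rhox5 window 3. Of 32851 promoter windows of the same length, 64.1% hold at least 1, so a match is common and is a description of these letters only. A search for AGATAA, a form of the GATA motif, on both strands found 0 matches in the 4 windows, against 9.99% of all windows with at least 1; this motif does not overlap GGAAG. RefSeq windows were found for 7 of 9 genes looked up, and Sox18 and Hbb-bh1 are named only.

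Of the 31 genes that rose, 22 have a gene symbol, and the rest carry only a clone, accession or transcript identifier. The transcription factors among them were Etv2, Sox18, Mef2c, Hoxb2, Ebf1 and Zfp467. Sox18, a factor of endothelial and lymphatic vessel identity, had levels of 0.091, -1.46 and -0.68 in Eng-Flk1+, against -5.57, -6.04 and -7.15 in Eng+Flk1-, of which 1 array was well above background. Its fold was 5.57 ± 0.59 (adjusted p = 0.0382, limma). Mef2c, a MADS-box factor of heart and vessel development, was at -0.67, -0.65 and -0.66 in Eng-Flk1+, against -5.89, -4.51 and -5.75 in Eng+Flk1-. The 3 Eng-Flk1+ values were nearly the same, the fold was 4.72 ± 0.45, and the adjusted p was 0.0353 by limma. Hoxb2, a homeobox factor of anterior-posterior patterning, had a fold of 4.06 ± 0.37 (adjusted p = 0.0324). Zfp467, a zinc-finger factor, stood well above background on each Eng-Flk1+ array but on 0 of the 3 Eng+Flk1- arrays. By a bound explained below it is at least 60.6-fold higher.

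Arap3, which the array design lists under an older name and which encodes a GTPase-activating protein needed for vessel growth in the mouse, was at 2.40, 1.27 and 3.07 in Eng-Flk1+, against -2.33, -2.13 and -2.17 in Eng+Flk1-. Its fold was 4.46 ± 0.51 (adjusted p = 0.0428, limma). Rassf2, a Ras-association protein, had a fold of 4.26 ± 0.46 and Pde3b, a cyclic nucleotide phosphodiesterase, one of 4.61 ± 0.52, with adjusted p of 0.0407 and 0.0421. Ablim1, an actin-binding LIM protein, had the largest rise of those whose 6 spots all stood well above background, at 5.43 ± 0.56 (adjusted p = 0.037).

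Secreted factors and receptors that rose included Cer1, Tgfb2 and Gpr19. Cer1 encodes Cerberus, a secreted antagonist of Nodal and BMP. It had levels of -2.16, -1.18 and -0.062 in Eng-Flk1+ and was not well above background on any Eng+Flk1- array, which makes it at least 48.4-fold higher (adjusted p = 0.0466, limma). Tgfb2, a TGF-beta ligand, was at least 17.1-fold higher and Gpr19, an orphan receptor, at least 35.2-fold higher. Tgfb2 had levels of -3.89, -2.82 and -2.55 in Eng-Flk1+, on an adjusted p of 0.0328. Other rises with a symbol included Fat4, an atypical cadherin, Traf6, Gngt2, Rab32, Itm2a, Sco1, Colec12 and Asb4. Such bounds set the mean of the bright group against that of the dim group, where each array counts at the higher of its lowest signal among probes well above background and the gene's own value. They allow for dim signal only and not for the error of the fold, so "at least" holds for these levels as processed. Under other ways of processing, log2 folds ranged from 2.20 to 7.72 for Zfp467 and from 0.99 to 5.30 for Tgfb2. They ranged from 2.31 to 6.78 for Cer1 and from 1.61 to 6.30 for Gpr19.

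Of the 19 genes that fell, 14 have a gene symbol that is more than a clone identifier. Rhox5, a homeobox gene of the X chromosome known from testis and placenta, had levels of -0.47, 0.72 and -0.62 in Eng-Flk1+, against 4.17, 5.02 and 5.48 in Eng+Flk1-. The fold was -5.01 ± 0.54 (adjusted p = 0.0391, limma). Xlr5c, an X-linked member of the Xlr family, was at -3.34, -2.88 and -2.06, against 2.01, 1.90 and 2.10, a fold of -4.77 ± 0.42 (adjusted p = 0.031). Fmr1nb, an X-linked gene next to Fmr1, had a fold of -4.64 ± 0.53 (adjusted p = 0.0429). Pramel13, of the Prame family of germline-expressed genes, was at -4.47, -3.95 and -3.92 in Eng-Flk1+, against 0.74, 0.71 and 0.89 in Eng+Flk1-. With a fold of -4.89 ± 0.33 and an adjusted p of 0.024, it was the 1 gene that still passed when only genes well above background on all 6 arrays were tested. Dnmt3l, the catalytically inactive partner of the de novo DNA methyltransferases, had levels of -1.92, -2.72 and -2.35, against 2.42, 1.39 and 1.34. Its fold was -4.05 ± 0.44 (adjusted p = 0.0407). Genes of the Rhox, Xlr and Prame families have near copies, so a probe may read more than 1 of them.

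Grhl1, a grainyhead-like factor of epithelia, showed the highest bound. It was not well above background on any Eng-Flk1+ array and had levels of -0.22, -1.74 and -0.91 in Eng+Flk1-. By the bound it is at least 158-fold lower in Eng-Flk1+ (adjusted p = 0.024, limma). The bound leaves out the error of the fold, and under other ways of processing the log2 fold of Grhl1 ranged from -7.70 to -2.30. By the same bound, Tmem125, a membrane protein, was at least 52.9-fold lower and Slc40a1, which encodes the iron exporter ferroportin, at least 42.4-fold lower. F2rl1, the protease-activated receptor PAR2, was at least 36.3-fold lower. These bounds too hold only for the levels as processed. Over the ways of processing, log2 folds ranged from -5.95 to -1.42 for Tmem125, from -5.78 to 0.68 for Slc40a1 and from -6.79 to -1.03 for F2rl1. Spint1, a membrane-bound inhibitor of serine proteases required in the mouse placenta, had levels of -1.09, -1.97 and -2.44 in Eng-Flk1+, against 2.48, 1.86 and 2.67 in Eng+Flk1-. Its fold was -4.17 ± 0.47 (adjusted p = 0.0421). Dtnbp1, a subunit of the BLOC-1 trafficking complex, had a fold of -3.21 ± 0.32 (adjusted p = 0.0365). With slide as a fixed block the folds of Dtnbp1 and Slc40a1 changed sign, to 0.70 and 0.68, with neither near the threshold. For Dtnbp1, Eng+Flk1+ replicate 3 on slide 3 was at 2.91, beside 2.40, 2.57 and 2.28 on the Eng+Flk1- arrays. Eng+Flk1+ replicates 1 and 2, on slide 2, were at -0.58 and -1.16. For Slc40a1, Eng+Flk1+ replicate 3 was at 0.10, above the Eng+Flk1- arrays, and replicates 1 and 2 were at -7.54 and -4.25. The part of the slide in these 2 folds was not tested. Cdkn2a, which encodes cell-cycle inhibitors, and Prkcq, a protein kinase C, also fell.

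**Figure D3:**
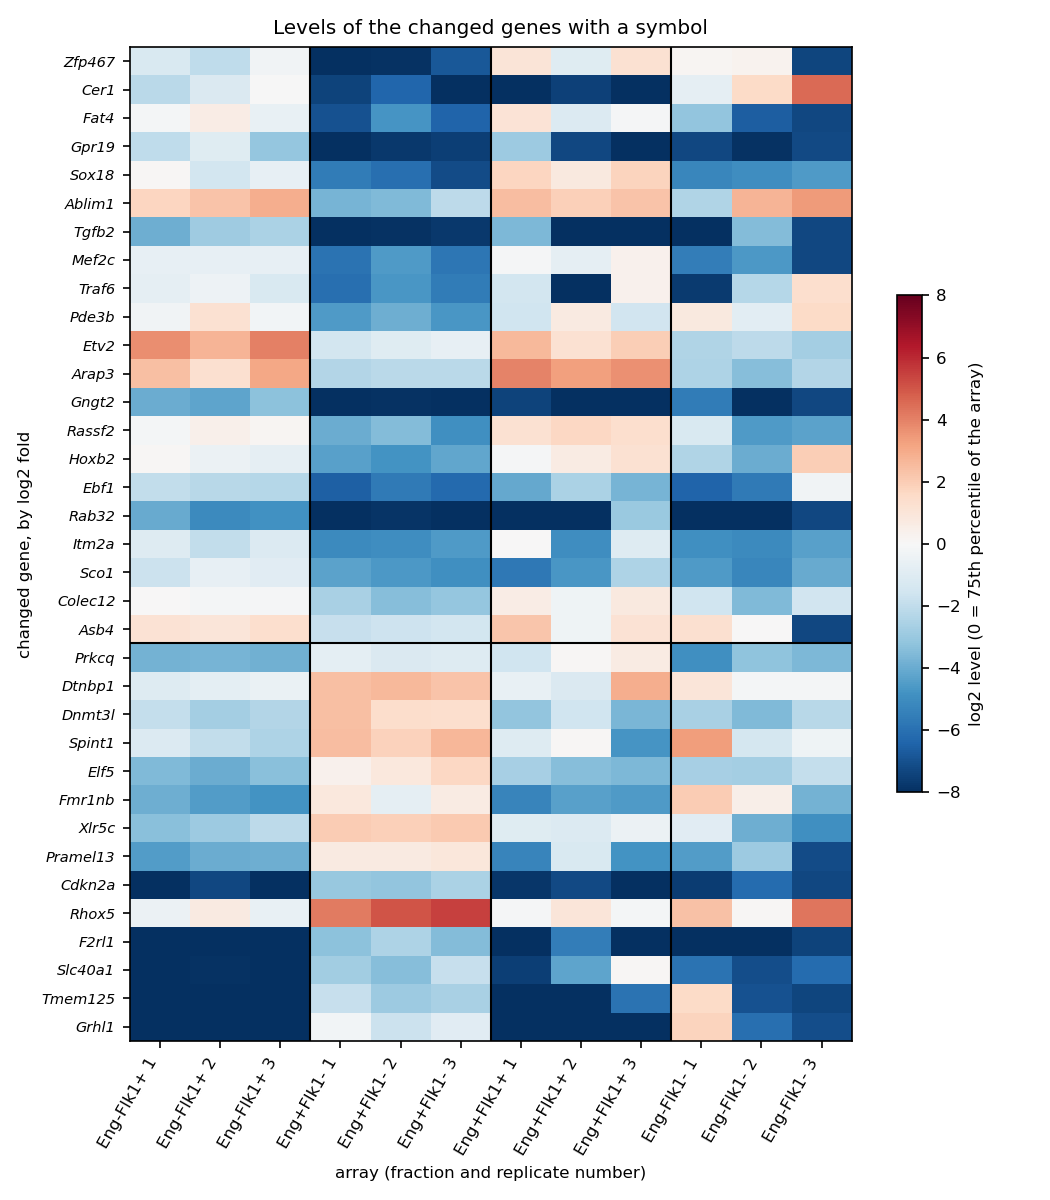
Rows are 35 of the 36 changed genes that have a symbol, ordered by log2 fold, with genes higher in Eng-Flk1+ above the horizontal line; columns are the 12 arrays by fraction and replicate. Colour is the level (log2, 0 at the array's 75th percentile): Etv2, Arap3, Mef2c and Sox18 are higher on both Flk1-positive fractions than on the Flk1-negative ones, while Elf5, Dnmt3l, Pramel13 and Xlr5c are higher on the 3 Eng+Flk1- arrays than on all others. Some of these levels, such as those of Mef2c and Sox18 in Eng-Flk1+, are near or below 0.

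Most endothelial genes had a positive fold, but few passed on their own. Of 24 tested genes of the endothelial list, 20 were positive, the median was 1.00 against -0.089 for all genes, and 10 had arrays that did not overlap, all of them higher. Over all genes tested, 44.5% had a positive fold, and 7.24% were higher and 8.71% lower without overlap. The counts of this list and of those below are to be set beside these shares. Only Sox18 changed. Plvap, a component of endothelial diaphragms, had levels of 1.36, 2.11 and 1.63 in Eng-Flk1+, against -0.53, -0.72 and -1.67 in Eng+Flk1-, a fold of 2.67 ± 0.44 (adjusted p = 0.0987, limma). Egfl7, a secreted factor of endothelium, had a fold of 3.64 ± 0.69 (adjusted p = 0.128), and Rasip1, needed for lumen formation in mouse vessels, one of 2.58 ± 0.45 (adjusted p = 0.104). Tek, Tie1 and Cdh5, receptors and the junction cadherin of endothelium, were named after their values were seen. Their folds were 6.0 ± 1.35, 3.35 ± 0.75 and 3.08 ± 1.03, none below an adjusted p of 0.18. Pecam1, Cldn5, Ramp2 and Vwf overlapped between the groups, with folds between -0.13 and 0.62. The mean level of the list lay between -0.51 and -0.059 on the Eng-Flk1+ arrays and between -2.11 and -1.75 on the Eng+Flk1- arrays. It was 1.39 on Eng+Flk1+ replicate 3, on the slide of the Eng+Flk1- arrays.

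The VEGF list had a median fold of 1.44 over 10 genes, with 6 that did not overlap, all higher, and none changed. Besides Kdr, Flt4, the receptor of VEGF-C and VEGF-D, had a fold of 4.29 ± 1.09 (adjusted p = 0.237). Nrp1, a VEGF co-receptor, had a fold of 1.52 ± 0.48, and Pgf, a ligand of the receptor FLT1, one of 1.37 ± 0.45. Vegfa itself was at -0.95 ± 0.50, and its arrays overlapped.

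Among regulators of blood and of the common blood and endothelial precursor, 21 genes were tested, 1 changed (Etv2) and 8 did not overlap, all higher, with a median fold of 0.49. Tal1, a basic helix-loop-helix factor required for all blood lineages in the mouse, had levels of 3.56, 2.99 and 3.82 in Eng-Flk1+, against -0.72, 0.60 and 0.080 in Eng+Flk1-. The fold was 3.47 ± 0.46 (adjusted p = 0.0651, limma). Hhex, a homeobox factor of blood, vessel and endoderm precursors, had a fold of 3.54 ± 0.58 (adjusted p = 0.097), and Fli1, an Ets factor, one of 2.30 ± 0.40 (adjusted p = 0.104). Runx1, Gata1 and Gata2, factors of definitive and primitive blood, overlapped, with folds of 0.17, -0.88 and 0.45.

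Genes of primitive red cells tended the other way. Of 22 tested, 18 had a negative fold, with a median of -0.82, and none changed. In 5 the arrays did not overlap with Eng-Flk1+ lower, against 8.71% of all genes tested. Klf1, the erythroid zinc-finger factor, had levels of -1.27, -5.36 and -4.73 in Eng-Flk1+, against 2.35, 1.69 and -0.38 in Eng+Flk1-. The arrays did not overlap, but each group spread widely, and the fold was -5.01 ± 1.23 (adjusted p = 0.221). Gypc, a red-cell membrane glycoprotein, had the opposite sign at 1.43 ± 0.44. Adult-type Hba-a1 had a fold of -2.05 ± 1.37 and overlapped. The list for decidua and maternal blood, which shares Hba-a1, had a median of -0.49 over 6 genes. Its mean level lay between -0.25 and 0.50 in Eng-Flk1+ and between -0.099 and 1.22 in Eng+Flk1-. The part of maternal cells in the globin values was not tested.

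Trophoblast and extraembryonic ectoderm genes were lower in Eng-Flk1+, all 24 of them by sign. All 24 were well above background on the 6 arrays, the median fold was -1.63, 15 did not overlap, and 3 changed: Rhox5, Elf5 and Spint1. The members differed in size. Eomes, a T-box factor of trophoblast stem cells and of the streak, had levels of -1.31, -1.24 and -0.80 in Eng-Flk1+, against 0.96, 1.89 and 1.54 in Eng+Flk1-. Its fold was -2.58 ± 0.38 (adjusted p = 0.0881, limma). Cdx2, a caudal homeobox factor, was at -1.67 ± 0.52 and Hand1, a factor of giant cells and of extraembryonic mesoderm, at -2.29 ± 0.47, both without overlap. Esrrb, an orphan nuclear receptor of trophoblast stem cells, was at -3.89 ± 0.74 and Fgfr2, their FGF4 receptor, at -3.36 ± 0.98, named after their values were seen. Tpbpa and Prl3d1, of later spongiotrophoblast and giant cells, were at -0.27 ± 0.35 and -0.55 ± 0.74 and overlapped. The mean level of the list lay between -0.82 and -0.45 on the Eng-Flk1+ arrays and between 1.31 and 1.43 on the Eng+Flk1- arrays. On Eng+Flk1+ replicate 3 of the same slide it was -1.26.

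Epithelial genes had the lowest median of the 26 lists, -2.44 over 19 genes. In 14 of them the Eng-Flk1+ arrays were all lower, in 1 all higher, and 1 changed (Spint1, which the trophoblast list also holds). Prss8, the protease prostasin, had levels of -4.20, -3.03 and -5.21 in Eng-Flk1+, against 0.60, 0.69 and 0.20 in Eng+Flk1-. Its fold was -4.65 ± 0.59 (adjusted p = 0.0591, limma). Cldn7, a tight-junction claudin, had a fold of -4.55 ± 0.70 (adjusted p = 0.0921) and Cdh1, the epithelial cadherin, one of -3.20 ± 0.53 (adjusted p = 0.0989). Cd24a, a surface glycoprotein, was the exception at 2.37 ± 0.41, and Krt8 and Krt18, simple keratins, lay at -0.93 and -0.53. The list's mean level was between -1.08 and -0.95 in Eng-Flk1+, between 1.33 and 1.54 in Eng+Flk1-, and -1.84 on Eng+Flk1+ replicate 3.

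Mesenchymal genes had a median of 1.31 over 17 genes, and none changed. In 4 the arrays did not overlap, all higher, against 7.24% of all genes tested. Zeb1, a repressor of Cdh1, had levels of 0.086, 0.62 and 0.042 in Eng-Flk1+, against -2.03, -2.21 and -2.09 in Eng+Flk1-, a fold of 2.36 ± 0.33 (adjusted p = 0.0696, limma). Fn1, fibronectin, was at 1.91 ± 0.33 and Twist1, a basic helix-loop-helix factor of mesenchyme, at 2.88 ± 0.64. Their arrays did not overlap.

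**Figure D4:**
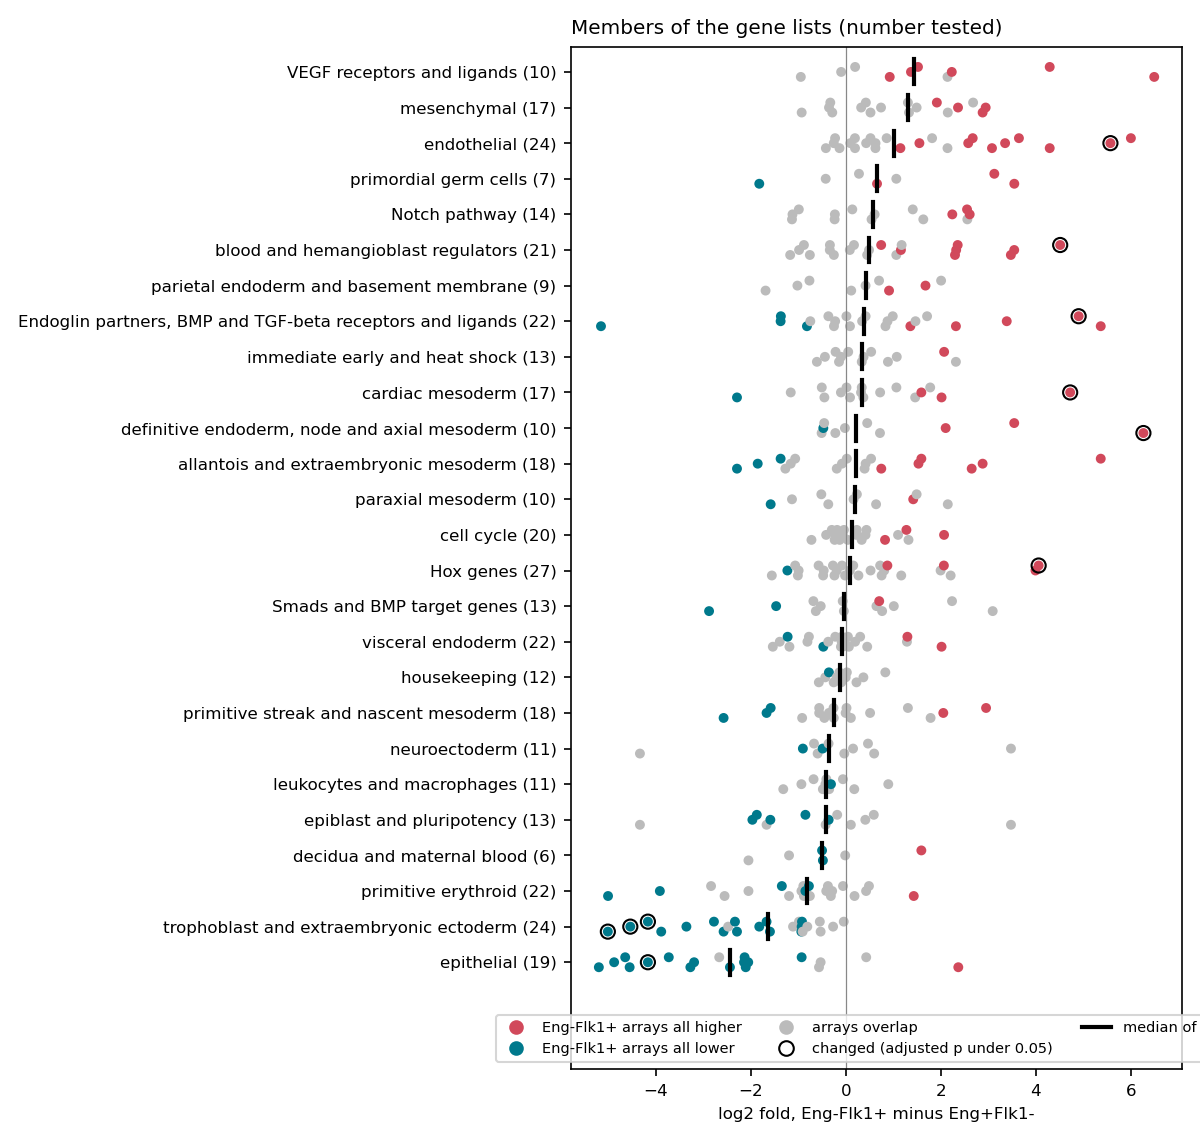
Each point is a tested member of 1 of 26 gene lists (rows, number tested in brackets), placed by its log2 fold (Eng-Flk1+ minus Eng+Flk1-). Colour tells whether the 2 groups of arrays overlap, black circles mark changed genes and black bars the list medians, which run from -2.44 (epithelial) and -1.63 (trophoblast) to 1.44 (VEGF).

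The list of Endoglin's partners, receptors and ligands of the BMP and TGF-beta families had 22 genes tested, a median of 0.38, 5 members without overlap that were higher and 4 that were lower, and 1 that changed, Tgfb2. The ligands went in both directions. Bmp5 had a fold of 5.37 ± 1.40 and Bmp2 one of 3.39 ± 0.97, while Bmp8b, known from the extraembryonic ectoderm, had levels of -7.28, -5.47 and -7.81 in Eng-Flk1+, against -1.74, -1.54 and -1.82 in Eng+Flk1-. Its fold was -5.16 ± 0.63 (adjusted p = 0.0525, limma), and Bmp4, which the same tissue makes, had one of -1.37 ± 0.42. The type I receptor Acvrl1, with which Endoglin acts in endothelium, had a fold of 1.46 ± 0.83 and overlapped. Among 13 Smads and BMP target genes none changed and the median was -0.043. Id2, an inhibitor of basic helix-loop-helix factors, had levels of 0.70, -0.041 and 0.93, against 3.24, 3.54 and 3.44, a fold of -2.88 ± 0.38 (adjusted p = 0.0651).

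In the Notch list, with 14 genes tested and none changed, 3 did not overlap and were higher, against 7.24% of all genes tested. Notch1 had a fold of 2.24 ± 0.38 (adjusted p = 0.102), Jag1, a ligand, 2.55 ± 0.56, and Hes1, a target, 2.61 ± 0.84. Of mesoderm lists, cardiac mesoderm had 1 changed member of 17 (Mef2c) and a median of 0.33. Allantois and extraembryonic mesoderm had 6 members higher and 3 lower without overlap of 18, none changed. The shares over all genes tested were 7.24% and 8.71%. The primitive streak list had a median of -0.26 over 18 genes, with Wnt3, a ligand needed for the streak, at 2.95 ± 0.53 and Eomes and Tbx6 negative. Paraxial mesoderm, with 10 tested, had a median of 0.20. Among 27 Hox genes 1 changed, Hoxb2, and the median was 0.083.

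Epiblast genes had a median of -0.43 over 13, and 5 did not overlap, all lower, against 8.71% of all genes tested. Utf1 and Zfp42, pluripotency-associated factors, had folds of -1.88 ± 0.31 and -1.97 ± 0.35 (adjusted p = 0.0989 and 0.112, limma). Of 7 germ cell genes, 5 had a positive and 2 a negative fold, with a median of 0.66, and 0 changed. Without overlap, 3 were higher and 1 lower. Prdm1, the factor that begins germ cell specification in the mouse, was at -0.91, -0.73 and -1.28 in Eng-Flk1+, against -3.77, -4.75 and -5.04 in Eng+Flk1-. Its fold of 3.55 ± 0.44 had an adjusted p of 0.0538 by limma, and with slide as a fixed block the fold was 0.82 ± 1.62. Tfap2c, also on this list, was at -1.82. Definitive endoderm had 1 changed gene of 10, Cer1. Visceral endoderm had a median of -0.088 over 22 genes, with mean levels between -0.74 and -0.33 in Eng-Flk1+ and between -0.60 and -0.34 in Eng+Flk1-. Parietal endoderm had a median of 0.41 and neuroectoderm one of -0.37, with none changed. Among cell cycle genes Ccnd1, cyclin D1, stood at 2.07 ± 0.35 (adjusted p = 0.0989). Housekeeping genes had a median of -0.12, leukocyte genes -0.41, and immediate early and heat shock genes 0.33, with Ier2, an early response gene, at 2.07 ± 0.32.

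The other fractions give a second comparison that shares no array with the pair, Eng+Flk1+ minus Eng-Flk1-, in which Flk1 runs the same way and Endoglin the opposite way. In it 262 of 21572 genes changed (1.21%), 232 higher (1.08%) and 30 lower (0.139%). Without any 1 of the Eng+Flk1+ arrays none passed. The Eng-Flk1- arrays all lay on slide 1 and the Eng+Flk1+ arrays on slides 2 and 3, so slide and group cannot be told apart here either. The Eng-Flk1- arrays were also dimmer and more variable. They had 66.5% to 76.3% of spots well above background, against 80.3% to 83.3% for Eng+Flk1+. The median SD of a gene between replicates was 1.02 in Eng-Flk1-, against 0.669 in Eng+Flk1+. Folds, calls and orders of arrays that use Eng-Flk1- must be read with this spread. Of the 31 genes that rose in Eng-Flk1+, 21 could be tested there. In this second comparison 16 of them had a positive fold, against 46.1% of all genes tested in both, and 5 rose, among them Etv2, Sox18, Mef2c and Arap3. The folds of those named were 4.33 ± 0.57, 6.31 ± 0.54, 5.65 ± 0.80 and 6.36 ± 0.55, each with an adjusted p of at most 0.0345 by limma. Cer1 went the other way, at -9.81 ± 1.30 (adjusted p = 0.0291), with its highest levels in Eng-Flk1-. Sco1, at -0.52, was read there through another probe. On the pair's own probe its mean level was -4.29 in Eng+Flk1+ and -4.59 in Eng-Flk1-. Kdr, at 7.83 ± 0.84, passed in this comparison (adjusted p = 0.017), and Eng, at 2.59 ± 0.73, did not (adjusted p = 0.231).

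Of the 19 genes that fell, 12 could be tested in the second comparison, 5 with a positive and 7 with a negative fold, and none changed. Elf5 was at -0.78 ± 0.54, Dnmt3l at -0.034 ± 0.74, Pramel13 at 1.08 ± 1.47 and Rhox5 at -2.01 ± 1.08. In 8 of the 19 the 3 Eng+Flk1- arrays lay above all 9 other arrays: Elf5, Dnmt3l, Pramel13, Xlr5c, Cdkn2a, F2rl1 and the clones 2310030G06Rik and AK046893. Over all 22269 genes tested this held for 193, all of them among the 1940 with every Eng-Flk1+ array below every Eng+Flk1- array. In 9 of the 31 that rose, all 6 Flk1-positive arrays lay above all 6 Flk1-negative arrays. Over all genes tested this held for 133, all of them among the 1613 with every Eng-Flk1+ array above every Eng+Flk1- array. These orders use in part the arrays that chose the genes, so they are a description.

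The lists parted in the same way. In the endothelial list, 9 of 24 genes had all Flk1-positive arrays above all Flk1-negative ones, against 133 of all 22269 tested. The median fold was 1.00 in the pair and 2.74 in the second comparison. In the trophoblast list, 6 of 24 had the 3 Eng+Flk1- arrays on top, among them Elf5, Eomes and Hand1, against 193 of all 22269 tested. The medians were -1.63 and -0.12. The mean trophoblast level was between -1.26 and -0.39 in Eng+Flk1+ and between -1.01 and -0.48 in Eng-Flk1-, below each Eng+Flk1- array. Epithelial genes were low in both Flk1-positive fractions, with medians of -2.44 and -1.59. Hbb-bh1 fell in the second comparison too (-5.26 ± 0.70, adjusted p = 0.0291, limma), while Hba-a1, at -2.05 in the pair, was at -10.22 ± 0.51 there (adjusted p = 0.0088).

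**Figure D5:**
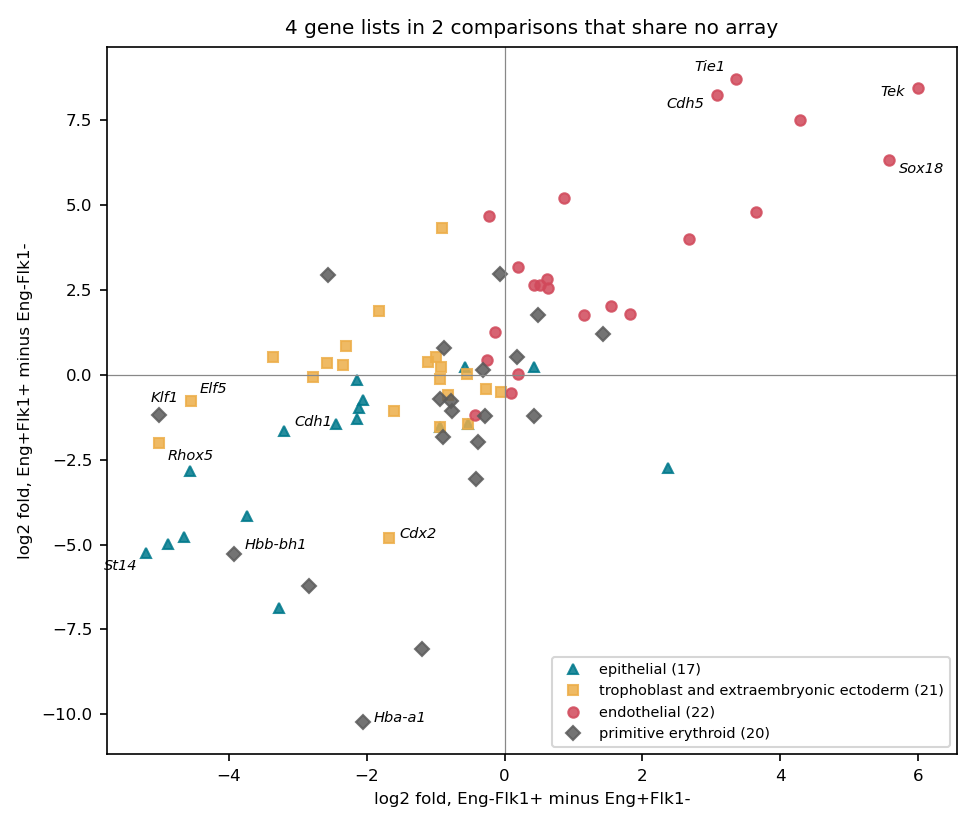
Each point is a gene of the epithelial, trophoblast, endothelial or primitive erythroid list that the same probe represents in both comparisons; the x axis is its log2 fold in Eng-Flk1+ minus Eng+Flk1- and the y axis that in Eng+Flk1+ minus Eng-Flk1-. Endothelial genes lie mostly at the upper right, most epithelial genes at the lower left, and trophoblast genes left of 0 but scattered about 0 on the y axis, with Elf5 at -4.54 and -0.78.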

How the data were processed

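RNA of sorted cells was measured on 1-colour Agilent arrays. Per the file headers, the deposited processed signal is an intensity per spot from Agilent Feature Extraction 10.5.1.1, with background subtracted within each array and no scaling between arrays. Per-spot flags (well above background, saturated, outlier), coded 0 or 1, were also deposited, and the authors' table holds intensity divided by the array's median, a linear ratio. GeneSpring GX is named in the labels, with settings not given in the sources used here.

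The log2 of each signal, less the array's 75th percentile over 43379 spots that are not controls, was averaged over spots of a probe, with outlier spots set aside. Genes were taken by the name in the file, 27745 in all, each through its brightest probe over the 6 arrays. Older names were updated through RefSeq (GRCm38.p6). A gene was tested if its spots stood well above background throughout at least 1 of the groups, with limma 3.58.1 in R 4.3.3 (data.table version 1.17.8) on the 6 arrays, with Benjamini-Hochberg adjustment over all 22269. Of these, 73 lacked a value on an array, none of them changed. An exact permutation test of 3 against 3 cannot go below 0.1, two-sided, so none was used. The method was tested on simulated data. The second comparison used its own 6 arrays and brightest probes.

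Genes named are the markers Eng, Kdr, Etv2, Elf5 and Hbb-bh1; the 8 largest rises and falls among changed genes whose 6 spots all stood well above background; the 4 highest bounds each way, in both cases passing over clone, accession and probe identifiers; and up to 4 members of each of 26 lists with the lowest p. Other members named in the text were added after their values were seen. One gene that the rule names is not reported here. Members and lists were chosen with earlier results of these data known.

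Replicate numbers did not pair the samples: deviations of samples with the same number correlated at -0.058, -0.082 and -0.0097. Alternatives covered the arrays in the fit, slide and replicate blocks, scaling, background correction, filters, probe choice, outlier spots, variance trend, array weights and leaving out each array.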

Additional observations from a re-analysis of the deposited data

How the results depend on the processing

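The count of 50 changed genes (31 higher, 19 lower) depended strongly on the processing. It was 26 with all 12 arrays in the fit, 76 with the 9 arrays that leave out Eng-Flk1-, 326 with slide as a random block (within-slide correlation -0.19), 78 with array quality weights, 30 with normexp and quantile normalization, 1 with only genes above background on all 6 arrays, and 0 with no filter on dim probes, with slide as a fixed block and with the replicate block. Unadjusted p under 0.05 was reached by 2228, 896 and 1909 genes in those last 3 fits. The replicate numbers do not pair the samples. Leaving out 1 array gave 0 changed genes in each of the 6 cases. Averaging all probes of a gene gave 24 higher and 24 lower. All 50 genes were also called with the random block and with array weights, and 13, 31 and 17 of them with 12 arrays, 9 arrays and normexp. Within the pair no slide held arrays of both groups, so the random block cannot part slide from group, and calls under it are no check on slide.

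In the second comparison the 262 became 552 with all 12 arrays, 1522 with slide as a random block (correlation -0.36), 0 with the replicate block (2036 at an unadjusted p under 0.05), 106 with median scaling or the authors' table, which shift the median of all genes to -0.68, 170 with quantile normalization, 96 with normexp, 146 with no filter and 29 with the strict filter. Leaving out 1 array gave 0 to 308, and 0 without any Eng+Flk1+ array.

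Among the 113 genes, Etv2 and Elf5 kept their sign in each alternative, with folds of 4.25 to 4.90 and of -5.17 to -3.31. No value that turned its sign was called under that alternative. With slide as a fixed block Dtnbp1 was at 0.70, Slc40a1 at 0.68, Notch3 at -3.28, Hoxb4 at -2.27 and Sdha at 0.34. With all probes averaged Smad4 was at -0.20 and Hspa1a at -1.10. Eng was at -0.029 with median scaling and the authors' table, and between -0.55 and 0.44 with 1 array left out. The cause of these shifts was not tested.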

Other observations

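Some families around the changed genes were looked at after the values were seen, so their counts are a description with no test of the family. Of 8 Rhox homeobox genes tested, 4 had every Eng-Flk1+ array below every Eng+Flk1- array, against 8.71% of all genes tested. Rhox9, also known from trophoblast, had a fold of -2.78 ± 0.42 (adjusted p = 0.0881, limma), and Rhox11 and Rhox13 were at 0.20 and -0.22. All 4 Xlr genes had a negative fold, with Xlr5a at -4.77 ± 0.84 and Xlr4b at -2.55 ± 0.55. Of 13 Prame family genes 4 were lower without overlap, beside the same share over all genes. These families have near copies, and a probe may read several of them.

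The DNA methyltransferases did not move together. Dnmt3l fell, with a fold of -4.05, while Dnmt3a, a de novo methyltransferase, was at 2.51 ± 0.37 (adjusted p = 0.0864) and Dnmt3b, the other, at -0.85 ± 0.37. The 5 genes of the matriptase axis were all lower in Eng-Flk1+ without overlap, against 8.71% of all genes tested. They are the proteases St14 and Prss8, their inhibitors Spint1 and Spint2, and the receptor F2rl1, of which Spint1 and F2rl1 passed. All but F2rl1 are also on the epithelial list, so this count largely repeats that one. The grainyhead-like factor Grhl2 was at -0.57 ± 0.35, beside the bound for Grhl1. Of 9 genes of iron transport and storage, Slc40a1 was the 1 that changed. Tfrc, the transferrin receptor, was at -0.061 ± 0.59 and Ftl1, a ferritin subunit, at -0.15 ± 0.31.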
